A study of Mus musculus with 39 samples.

Results

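The genes described here are the solute carriers of mouse liver that are mostly known from the plasma membrane. They were chosen by name: every symbol that starts with Slc or Slco and a digit was taken from the deposited tables, leaving out the mitochondrial Slc25a carriers and the genes Slc27a2, Slc30a1, Slc39a14 and Slc40a1. This rule gave 187 of the 13230 genes listed for both gradients. A further 11 matching genes were listed for gradient 1 alone and 3 for gradient 2 alone, and these were not used.

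RNA was sequenced from fractions of sucrose gradients loaded with liver homogenate of wild-type female FVB mice, broken with beads without detergent and cleared of nuclei, to ask where each RNA sediments. Gradient 1 had 17 libraries (fractions 4 to 19 and 21) and gradient 2 had 22 libraries (fractions 3 to 24), with 1 library per fraction. The number of mice behind a gradient is not given in the sources used here. The animals carried no alleles or treatments that the labels name, and their age was not given. Zones of 4 libraries per gradient were compared: a light zone (fractions 4 to 7), a middle zone (10 to 13) and a dense zone (16 to 19). Values are TPM, a measure per transcript length that is scaled to a fixed total in each library, so a level is the share of an RNA within its fraction and not its amount. The read depth of each library is unknown from TPM.

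Solute carriers are proteins with many membrane-spanning segments that let small molecules cross lipid bilayers, by facilitated diffusion or by coupling to ion gradients. Hepatocytes place them in the sinusoidal membrane, where they take up bile acids, amino acids, sugars and drugs from blood, and in the canalicular membrane facing bile. Their mRNAs are translated by ribosomes bound to the endoplasmic reticulum, where the proteins are inserted into the membrane.

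The label of a plasma membrane gene group fitted most but not all of the 187 members. From textbook knowledge, 52 members are carriers of intracellular membranes, such as the Golgi carriers of nucleotide sugars, and 5 symbols name no carrier at all: Slc9a3r1 and Slc9a3r2 (scaffold proteins that bind an exchanger), Slc4a1ap (an adaptor protein), Slc7a6os and Slc36a1os (genes named for the opposite strand). The other 130 members are carriers outside both lists. Counts are therefore given below for all members and for the carriers alone.

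Levels spanned a wide range. The mean TPM over the 34 libraries of the 17 fractions that both gradients share was at least 100 for 5 members, at least 10 for 70 and under 1 for 28, with a median of 5.95. The 5 most abundant were Slc9a3r1 at 426, the amino acid carriers Slc38a3 at 369 and Slc38a4 at 223, the organic anion carrier Slco1b2 at 157 and the bile acid carrier Slc10a1 at 132. Together the 10 most abundant members held 46.6% of the members' summed mean TPM of 3655. A filter of a mean TPM of at least 1 over the 24 zone libraries was passed by 160 members. The 27 that did not pass had means between 0.295 and 0.991. All 27 had a higher mean in the light than in the dense zone in both gradients. The share of other low genes with this direction is not given here. The paper's TPM table holds only genes over 1 TPM in some fraction, so low members may be listed for their light values.

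The carriers' share of the RNA was highest in the light zone. Summed over the carriers, TPM was 4173 to 8209 in the 8 light libraries (median 5858), 1373 to 3353 in the 8 middle libraries (median 2267) and 1129 to 2806 in the 8 dense libraries (median 1753). The light libraries did not overlap with the middle or dense ones, which overlapped with each other. Fraction 5 had the highest sum in each gradient, 7883 in gradient 1 and 8209 in gradient 2. The sum of the 5 symbols that name no carrier was higher in the middle and dense zones than in the light zone, and most of it was Slc9a3r1. It was 160.2 to 281 in the light, 386 to 671 in the middle and 440.4 to 785 in the dense libraries. Between 168 and 183 members were above 1 TPM in a light library, and between 124 and 143 in a dense library.

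**Figure D1:**
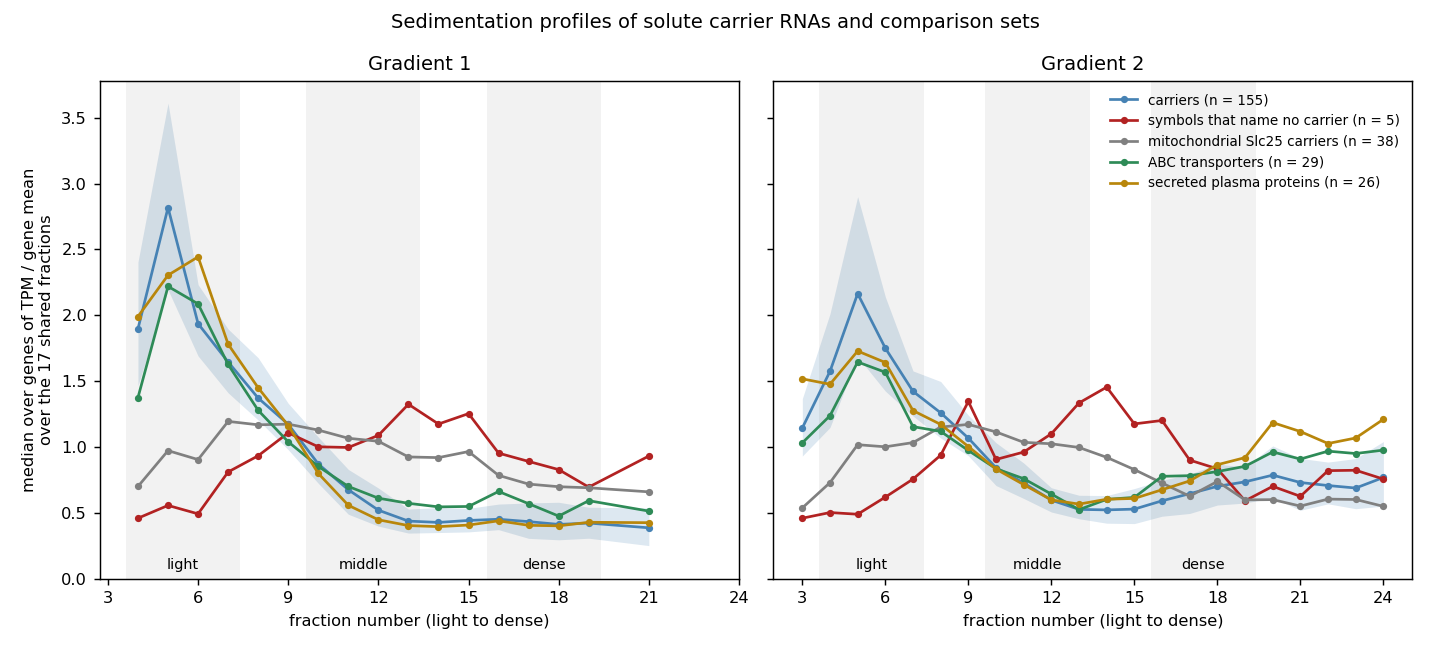
Median over genes of TPM divided by the gene's mean over the 17 shared fractions (vertical axis, no unit) against fraction number (horizontal axis) in gradients 1 and 2, for 155 carriers, 5 symbols that name no carrier and 3 comparison sets, with the zones shaded and the band spanning the carriers' quartiles. The carriers' median peaks in fraction 5 (2.82 in gradient 1, 2.17 in gradient 2).

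Zones were compared gene by gene on zone means of log2(TPM + 1), with n = 2 gradients per zone, and a change counted as passing at a limma adjusted p under 0.05 over all 11754 genes tested. Fold changes on this scale understate the changes of low genes. Between the dense and light zones, 129 of 160 members fell, against 39.6% of all genes, and 2 rose, against 22.3%. The filter takes the mean over all zones, so a member that is low elsewhere can pass by its light values. Without a filter 149 of 187 members fell, against 42.2% of 13230 genes. As described above, being listed at all may rest on light values, so this set is not free of that selection. The median change of the members was −1.40, and that of all genes −0.43. In the middle zone, 113 members were lower than in the light zone, against 24.1% of all genes, and 4 were higher, against 23.5%. The median change here was −1.23 for the members and 0.05 for all genes. Among the 155 carriers alone, 128 fell and 0 rose from the light to the dense zone by limma, with 0 at an unadjusted p under 0.05 also. A fit with the gradient as a block called 1 carrier higher, Slc51b.

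Few members passed between the dense and middle zones. Of 160, 2 (Slc30a9 and Slc35a4) were lower in the dense than in the middle zone, against 22.5% of all genes, and limma called 0 higher, against 4.79%. At an unadjusted p under 0.05, 0 members were higher as well, against 1043 of 11754 genes. The median change was −0.19 for the members (0.14 after quantile normalization) and −0.28 for all genes. Without the middle zone of gradient 1 or of gradient 2 limma called 0 of all genes lower, members included. Without the light zone of gradient 1 or of gradient 2 it called 1 member lower, against 14.4% and 14.2% of all genes. The members' median was 0.04 without the dense zone of gradient 1 and −0.48 without that of gradient 2. A fit that takes the gradient as a block, so that zones are paired within a gradient, called 14 members lower (against 39.3% of all genes) and 0 higher (against 1661 of 11754 genes) in the dense than in the middle zone. That paired fit called 4 members higher in the dense than in the light zone in place of 2, against 3589 of 11754 genes.

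All 8 dense libraries lay below all 8 light libraries for 112 of 160 members, against 28.9% of all genes. Relative to the light zone, 149 members were lower in the dense zone in both gradients (against 6626 of all 11754 genes) and 151 in the middle zone (against 5291), before any test. Without the light zone of gradient 1, which leaves 1 light value, the members that fell numbered 84 for the dense and 43 for the middle zone, against 27.8% and 12.0% of all genes. For the middle zone the count was 64 without the light zone of gradient 2 (against 14.5% of all genes) and 52 without the middle zone of gradient 1 (against 12.3%). The median member change moved less, to −1.41 for the dense and −1.17 for the middle zone without the light zone of gradient 1. For the dense against the light zone the median was −1.18 without the dense zone of gradient 1 and −1.77 without that of gradient 2.

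The gradients differed in the size of the change. The members' median change between the light and dense zones was −1.81 in gradient 1 and −1.10 in gradient 2, while that of all genes was −0.40 in each. In the dense zone, 133 of 160 members had a higher level in gradient 2 than in gradient 1, with a median difference of 0.55 on the log2 scale. Over all genes the median of this difference was −0.17, and 4171 of 11754 were higher in gradient 2. Of the comparison sets described below, 25 of 29 ABC transporters, 27 of 29 partners and exporters and 26 of 26 secreted plasma proteins were higher. For the mitochondrial Slc25 carriers it was 17 of 38. In the light zone the members differed between gradients by a median of −0.09 and all genes by −0.12. A difference between gradients and a difference between the animals used for them cannot be told apart.

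Quantile normalization moved the background more than the members' distance from it. It took the median of all genes from −0.43 to −0.05 between the dense and light zones and from −0.28 to 0.03 between the dense and middle zones. Relative to all genes, the members' median change between the dense and light zones was −0.97. With quantile normalization the members' own median was −1.05, with 86 members lower (against 29.9% of all genes) and 3 higher (against 3603 of 11754 genes). Among genes that passed between the light and dense zones, the share with a rise went from 36.0% to 50.6% over all genes, and from 1.53% to 3.37% over the members. Between the middle and dense zones it went from 17.5% to 43.0% over all genes.

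Carriers of the 2 membrane classes gave similar medians. Of 107 tested carriers outside the intracellular list, 88 fell toward the dense zone with a median of −1.38. Of 48 on that list, 40 fell with a median of −1.62. Over all genes 39.6% fell, with a median of −0.43. Whether these medians differ was not tested.

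**Figure D2:**
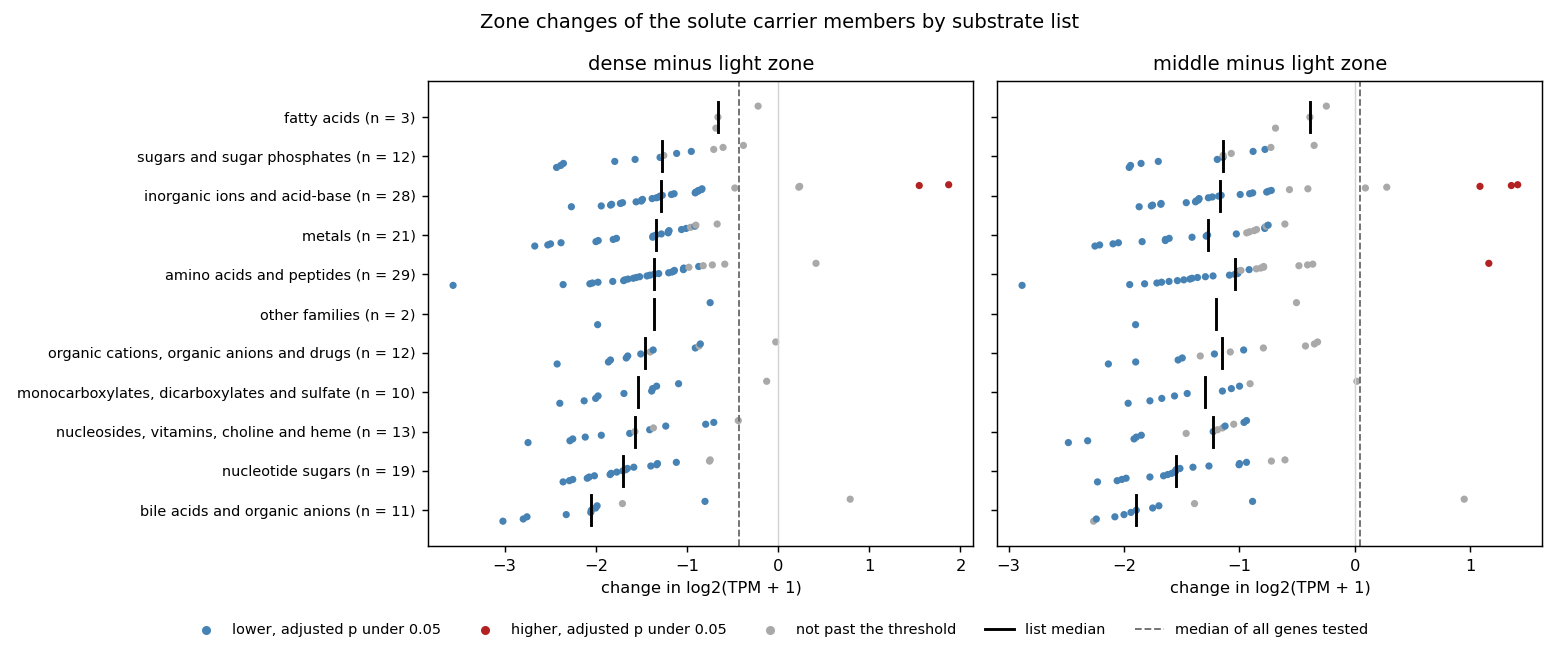
Change in log2(TPM + 1) of each tested member (points, horizontal axis) by substrate list (vertical axis), for the dense minus light and middle minus light zones, with list medians as bars and the median of all genes tested as a dashed line. The medians of the lists lie between −2.05 and −0.66 for the dense minus light zones.

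The list of bile acid and organic anion carriers (families Slc10, Slc51 and Slco) had the lowest list median. Of 11 tested members, 9 fell between the light and dense zones (median −2.05), and 8 were lower in the middle zone with a median of −1.89. Over all genes the shares that fell were 39.6% and 24.1%, with medians of −0.43 and 0.05. Slco1b2, a liver carrier of bilirubin, bile acids and statins, had TPM of 168 to 612 (median 403) in the light, 43.7 to 177 (median 89.8) in the middle and 21.7 to 111 (median 56.5) in the dense libraries. Each dense library was below each light one, and the change was −2.76 (SE 0.58, adjusted p = 0.00857). Slco1a1, a carrier of conjugated steroids and bile acids, had TPM of 132 to 332 (median 233) in the light, 22.8 to 105 (median 53.2) in the middle and 11.6 to 74.3 (median 33.7) in the dense libraries. Its light libraries stood above all middle and dense libraries, with a change of −2.80 (SE 0.51, adjusted p = 0.00504). Slco2b1, another organic anion carrier, went from 24.1 to 66.5 (median 41.2) in the light to 3.46 to 15.6 (median 9.65) in the dense libraries without overlap, a change of −2.06 (SE 0.37, adjusted p = 0.00458).

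The related Slco1a4 had TPM of 13.6 to 118 (median 46.6) in the light, 2.68 to 26.4 (median 10.2) in the middle and 0.690 to 14.7 (median 6.77) in the dense libraries. Its change was −3.02 (SE 1.03, adjusted p = 0.0451), with −3.41 in gradient 1 and −2.63 in gradient 2, and here the highest dense library was above the lowest light one. Slc10a1, the sodium-coupled carrier that takes up most conjugated bile acids, had TPM of 129 to 499 (median 215) in the light, 36.1 to 158 (median 94.0) in the middle and 29.4 to 178 (median 70.0) in the dense libraries. The zones overlapped, and its change of −1.71 (SE 0.65, adjusted p = 0.0619) did not pass. With the gradient as a block the adjusted p of Slc10a1 was 0.00628. Its change was −2.67 without the dense zone of gradient 2 and −0.75 without that of gradient 1. The call of Slco1b2 was lost without the light zone of gradient 2 (adjusted p = 0.0692). That of Slco1a4 was lost without the light zone of gradient 1 (0.0790), the light zone of gradient 2 (0.236) or the dense zone of gradient 1 (0.168, with a change of −1.80). After quantile normalization the adjusted p of Slco1a4 was 0.0759. Slc51b, a subunit of the basolateral bile acid exporter and chosen after its values were seen, had TPM of 0.442 to 4.88 (median 2.04) in the light and 0 to 12.8 (median 5.43) in the dense libraries. Its zones overlapped widely and the change of 0.79 (SE 0.81, adjusted p = 0.425) did not pass, while with the gradient as a block its adjusted p was 0.0345.

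The list of amino acids and peptides was the largest, with 36 members, 29 tested and 26.5% of the members' summed TPM. By the number in their symbols Slc7a6os and Slc36a1os, which name no carrier, were counted here. From the light to the dense zone 24 of 29 fell (against 39.6% of all genes), with a median of −1.36. In the middle zone 20 were lower, against 24.1% of all genes. Slc7a2, a carrier of arginine and other cationic amino acids, had TPM of 76.0 to 412 (median 181) in the light, 12.5 to 45.4 (median 24.8) in the middle and 6.12 to 26.3 (median 16.9) in the dense libraries. Its light libraries stood above all others, and its change of −3.57 (SE 0.65, adjusted p = 0.00490) was the largest fall among the tested members. Slc38a4, a sodium-coupled carrier of neutral amino acids, had TPM of 248 to 755 (median 431) in the light, 89.3 to 253 (median 166) in the middle and 61.4 to 179 (median 111) in the dense libraries. The dense libraries were all below the light ones and the change was −2.04 (SE 0.46, adjusted p = 0.0112). Slc1a2, a glutamate carrier known in liver from hepatocytes around the central vein, had TPM of 12.1 to 29.0 (median 19.7) in the light, 2.67 to 6.90 (median 4.37) in the middle and 1.63 to 7.43 (median 4.64) in the dense libraries. Light libraries were above all others, with a change of −2.07 (SE 0.41, adjusted p = 0.00663).

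A pair of amino acid transport genes had flatter values. Slc38a3, which carries glutamine and histidine, had TPM of 309 to 719.6 (median 517) in the light, 225 to 529.8 (median 356) in the middle and 133 to 443 (median 255) in the dense libraries. These zones overlapped, and the change of −0.98 (SE 0.56, adjusted p = 0.175) did not pass, with −1.42 in gradient 1 and −0.54 in gradient 2. Slc3a2, the single-span partner chain of several amino acid exchangers, had TPM of 9.14 to 17.5 (median 13.2) in the light, 8.49 to 12.1 (median 9.77) in the middle and 5.85 to 11.4 (median 8.24) in the dense libraries. Its zones overlapped and its change of −0.59 (SE 0.27, adjusted p = 0.105) did not pass either. With the gradient as a block the adjusted p was 0.0105 for Slc38a3 and 0.0681 for Slc3a2. Without the dense zone of gradient 2 their changes were −1.74 and −0.86. Without that of gradient 1 their changes were −0.22 and −0.31. The calls of Slc38a4 were lost without the light zone of gradient 1 (adjusted p = 0.0551) or gradient 2 (0.0804), and that of Slc1a2 without the light zone of gradient 2 (0.0558).

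Sugar and sugar phosphate carriers numbered 15, of which 12 were tested. From the light to the dense zone 8 fell (median −1.28), against 39.6% of all genes. Slc2a2, the main glucose carrier of hepatocytes, had TPM of 65.1 to 217 (median 119) in the light, 11.3 to 54.0 (median 32.8) in the middle and 8.89 to 40.8 (median 24.3) in the dense libraries. Light libraries did not overlap with the others, and the change was −2.43 (SE 0.57, adjusted p = 0.0121). Slc2a9, a urate carrier, had TPM of 15.1 to 51.0 (median 25.4) in the light and 2.55 to 8.28 (median 3.83) in the dense libraries, a change of −2.36 (SE 0.38, adjusted p = 0.00312). Slc2a1, the glucose carrier known from the blood-brain barrier, was low, with 2.50 to 5.22 (median 3.98) in the light and 0.482 to 1.55 (median 1.04) in the dense libraries and a change of −1.30 (SE 0.20, adjusted p = 0.00291). For both carriers the light libraries were above all dense and middle ones. Slc37a4, which moves glucose 6-phosphate into the endoplasmic reticulum, had TPM of 39.8 to 67.5 (median 46.5) in the light, 10.4 to 39.7 (median 19.9) in the middle and 7.63 to 28.8 (median 17.2) in the dense libraries and a change of −1.57 (SE 0.40, adjusted p = 0.0168). Calls of Slc2a2 and Slc37a4 were lost without the light zone of gradient 1 (adjusted p = 0.0678 and 0.0858) or of gradient 2 (0.0809 and 0.0963). Without the dense zone of gradient 1 the change of Slc37a4 was −1.01.

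Monocarboxylate, dicarboxylate and sulfate carriers numbered 15, with 10 tested. From the light to the dense zone 9 fell (median −1.54), against 39.6% of all genes. Slc16a12, a creatine carrier, had TPM of 49.4 to 116 (median 80.8) in the light, 11.5 to 32.7 (median 21.6) in the middle and 10.7 to 27.5 (median 16.8) in the dense libraries. Light libraries were above all others, and the change was −2.13 (SE 0.41, adjusted p = 0.00622). Its call was lost without the light zone of gradient 2 (adjusted p = 0.0549). Slc16a1, the carrier of lactate and pyruvate, fell from 9.40 to 43.3 (median 21.9) to 1.90 to 4.72 (median 3.55), a change of −2.40 (SE 0.29, adjusted p = 0.00123). The member of this list that did not pass was Slc16a11, chosen after its values were seen, with 0.677 to 6.86 (median 4.57) in the light and 2.22 to 4.30 (median 3.02) in the dense libraries.

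The organic cation, organic anion and drug carriers (families Slc22 and Slc47) held 12 tested members. From the light to the dense zone 9 fell (median −1.46), against 39.6% of all genes. In the middle zone 6 were lower, against 24.1% of all genes. Slc22a7, an organic anion carrier, had TPM of 4.58 to 11.6 (median 7.94) in the light, 1.71 to 7.08 (median 4.51) in the middle and 2.61 to 5.40 (median 3.81) in the dense libraries and a change of −0.87 (SE 0.31, adjusted p = 0.0516) that did not pass. With the gradient as a block its adjusted p was 0.0369. With zone values left out its change ran from −1.22 (without the light zone of gradient 2) to −0.52 (without that of gradient 1).

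Slc47a1, which exports organic cations into bile, had TPM of 41.2 to 86.3 (median 60.6) in the light, 8.99 to 23.8 (median 14.1) in the middle and 9.45 to 24.2 (median 15.4) in the dense libraries. Its light libraries stood above all others, with a change of −1.84 (SE 0.29, adjusted p = 0.00301). Slc22a26, of the organic anion family, had TPM of 55.8 to 81.0 (median 69.5) in the light, 12.9 to 51.7 (median 27.7) in the middle and 9.48 to 47.4 (median 22.7) in the dense libraries. Light libraries were higher than all others, and the change was −1.65 (SE 0.49, adjusted p = 0.0279). That call was lost without the light zone of gradient 1 (adjusted p = 0.111) or gradient 2 (0.137), and without the dense zone of gradient 1 the change was −0.91. After quantile normalization its change of −1.51 had an adjusted p of 0.0521.

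Fatty acid carriers (family Slc27) had 0 of 3 tested members called by limma, and also 0 at an unadjusted p under 0.05, while with the gradient as a block 2 of the 3 were called lower in the dense than in the light zone, against 50.0% of all genes. The list median was −0.66, and 0.04 after quantile normalization. Slc27a5, an enzyme of the endoplasmic reticulum that activates bile acids and very long chain fatty acids, had TPM of 68.5 to 121 (median 102) in the light, 46.9 to 114 (median 75.3) in the middle and 36.4 to 97.5 (median 59.9) in the dense libraries. Its zones overlapped and the change was −0.68 (SE 0.37, adjusted p = 0.153), while with the gradient as a block the adjusted p was 0.0276. The change was −1.19 without the dense zone of gradient 2 and −0.18 without that of gradient 1. Slc27a4, which imports and activates long chain fatty acids, had TPM of 7.26 to 12.9 (median 10.5) in the light, 3.97 to 7.52 (median 6.01) in the middle and 4.56 to 14.8 (median 7.83) in the dense libraries. Its change of −0.22 (SE 0.37, adjusted p = 0.625) had opposite signs in the gradients, −0.82 in gradient 1 and 0.38 in gradient 2, and was 0.21 after quantile normalization.

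Nucleoside, vitamin, choline and heme carriers numbered 14, with 13 tested. From the light to the dense zone 10 fell (median −1.57), against 39.6% of all genes. In the middle zone 9 were lower, against 24.1% of all genes. Slc48a1, a heme carrier of lysosomes and endosomes, had TPM of 53.7 to 117 (median 72.3) in the light, 8.05 to 19.1 (median 12.6) in the middle and 5.36 to 16.1 (median 10.9) in the dense libraries. All middle and dense libraries were below the light ones, and the change was −2.74 (SE 0.25, adjusted p = 0.000558). Slc19a2, a thiamine carrier, had TPM of 34.4 to 144 (median 88.6) in the light, 9.54 to 19.5 (median 14.4) in the middle and 9.65 to 23.6 (median 15.3) in the dense libraries, also without overlap, and a change of −2.29 (SE 0.27, adjusted p = 0.00108). Slc29a1, which equilibrates nucleosides across the plasma membrane, had TPM of 79.4 to 178 (median 126) in the light, 39.1 to 97.4 (median 59.9) in the middle and 35.0 to 48.8 (median 41.6) in the dense libraries. Its dense libraries were below the light ones, its middle libraries lay between and overlapped with both, and the change was −1.63 (SE 0.22, adjusted p = 0.00155).

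Metal carriers numbered 23, with 21 tested. From the light to the dense zone 18 fell (median −1.34), against 39.6% of all genes. In the middle zone 15 were lower, against 24.1% of all genes. Slc31a1, the copper importer, had TPM of 59.1 to 217 (median 118) in the light, 34.9 to 54.5 (median 43.3) in the middle and 26.0 to 80.7 (median 44.8) in the dense libraries and a change of −1.34 (SE 0.37, adjusted p = 0.0219). Slc39a1, a zinc importer, had TPM of 67.9 to 136 (median 94.2) in the light, 18.1 to 39.2 (median 27.1) in the middle and 23.6 to 54.0 (median 36.9) in the dense libraries and a change of −1.38 (SE 0.36, adjusted p = 0.0191). For Slc39a1 the light libraries were above all others, and for Slc31a1 a few dense libraries overlapped with the light ones. Slc30a10, a manganese exporter, fell from 10.1 to 55.8 (median 24.4) in the light to 1.89 to 4.46 (median 3.50) in the dense libraries, a change of −2.50 (SE 0.45, adjusted p = 0.00460). The calls of Slc31a1 and Slc39a1 were lost without the light zone of gradient 1 (adjusted p = 0.0943 and 0.0920) or gradient 2 (0.115 and 0.102). Without the dense zone of gradient 1 their changes were −0.80 and −0.88.

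Slc30a9, a zinc carrier known from mitochondria, was called lower in the dense than in the middle zone. It had TPM of 49.7 to 84.1 (median 70.8) in the light, 26.4 to 75.3 (median 44.3) in the middle and 13.1 to 19.1 (median 16.3) in the dense libraries. The dense libraries were below all others, and the middle libraries overlapped with the light ones. Between the light and dense zones its change was −2.00 (SE 0.20, adjusted p = 0.000694), that from the middle to the dense zone −1.39 (SE 0.20, adjusted p = 0.00821) and that from the light to the middle zone −0.61 (SE 0.20, adjusted p = 0.0513). With the gradient as a block the last of these had an adjusted p of 0.00299, and without the dense zone of gradient 1 or 2 it was 0.0485 and 0.0495. The call between the middle and dense zones was lost without the middle zone of gradient 1 (adjusted p = 0.0573) or gradient 2 (0.0643). Its highest fraction was 8 in gradient 1 and 9 in gradient 2.

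Nucleotide sugar carriers of the Golgi and endoplasmic reticulum (family Slc35) held 19 members, all tested. From the light to the dense zone 17 fell (median −1.70), against 39.6% of all genes. In the middle zone 17 were lower, against 24.1% of all genes. Slc35e2, whose substrate is not established, had TPM of 57.5 to 164 (median 85.9) in the light, 18.4 to 36.9 (median 29.6) in the middle and 15.3 to 25.2 (median 20.6) in the dense libraries. Slc35d1, which carries UDP-glucuronic acid into the endoplasmic reticulum, had TPM of 46.6 to 192 (median 85.4) in the light, 9.85 to 37.1 (median 23.8) in the middle and 6.06 to 36.4 (median 18.8) in the dense libraries. For both, the light libraries were above all others, with changes of −2.07 (SE 0.21, adjusted p = 0.000689) and −2.36 (SE 0.59, adjusted p = 0.0155). Slc35a4, of the same family, had TPM of 8.39 to 20.8 (median 16.8) in the light, 5.31 to 16.8 (median 11.0) in the middle and 2.96 to 5.92 (median 4.57) in the dense libraries. It fell from the light to the dense zone by 1.67 (SE 0.21, adjusted p = 0.00127) on the log2 scale and was lower in the dense than in the middle zone, at −1.07 (SE 0.21, adjusted p = 0.0160). The dense libraries of Slc35a4 were below the light ones and overlapped with the middle ones. Its call between the middle and dense zones was lost with quantile normalization (adjusted p = 0.0600), with other zone borders (0.0507) and with gradient 2 shifted by +1 (0.0505). It was also lost without the light zone of gradient 1 (0.0555) or 2 (0.0552) and without the middle zone of gradient 1 (0.0976) or 2 (0.105). Without the light zone of gradient 1 or 2 the adjusted p of Slc35d1 was 0.0651 and 0.104, and without the dense zone of gradient 1 its change was −1.53.

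The families outside these lists had 4 members, of which 2 were tested. Slc33a1, which carries acetyl-CoA into the endoplasmic reticulum, had TPM of 22.1 to 41.3 (median 30.0) in the light, 14.2 to 26.3 (median 21.7) in the middle and 11.6 to 23.5 (median 18.8) in the dense libraries. Its zones overlapped, and the change of −0.75 (SE 0.22, adjusted p = 0.0260) passed. Without any zone value other than the dense zone of gradient 2 the call was lost, at an adjusted p between 0.0520 (without the middle zone of gradient 1) and 0.122 (without the light zone of gradient 2), and after quantile normalization it was 0.110. Slc18b1, a polyamine carrier of vesicles, had TPM of 4.10 to 10.4 (median 6.58) in the light and 0.476 to 2.13 (median 0.937) in the dense libraries without overlap, a change of −1.98 (SE 0.27, adjusted p = 0.00169).

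Inorganic ion and acid-base families held 33 members, 28 tested. By the number in their symbols, 3 of the 5 members that name no carrier were counted here. From the light to the dense zone 23 fell (against 39.6% of all genes) and 2 rose (against 22.3%), with a median of −1.28. Slc17a2, of a family of phosphate and organic anion carriers, had TPM of 99.7 to 167 (median 124) in the light, 38.5 to 83.4 (median 50.2) in the middle and 32.6 to 52.0 (median 41.7) in the dense libraries. Its light libraries were above all others, and the change was −1.56 (SE 0.23, adjusted p = 0.00217).

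The 2 members that rose from the light to the dense zone were symbols that name no carrier. Slc9a3r1 had TPM of 107 to 229.5 (median 170.3) in the light, 292 to 596 (median 427) in the middle and 398 to 703 (median 625) in the dense libraries, and the light libraries were below all others. Its change was 1.87 (SE 0.21, adjusted p = 0.000935) from the light to the dense zone and 1.41 (SE 0.21, adjusted p = 0.00398) to the middle zone. Slc4a1ap had TPM of 6.01 to 12.8 (median 8.28) in the light, 14.2 to 25.7 (median 19.4) in the middle and 19.3 to 39.6 (median 26.8) in the dense libraries, with light libraries again below all others. Its change to the dense zone was 1.55 (SE 0.31, adjusted p = 0.00738), and without the light zone of gradient 1 or 2 the adjusted p was 0.0551 and 0.0511. To the middle zone it was 1.08 (SE 0.31, adjusted p = 0.0340).

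Slc9a3r2 and Slc7a6os were highest in the middle zone. Slc9a3r2 had TPM of 9.58 to 25.8 (median 15.8) in the light, 25.9 to 55.5 (median 40.1) in the middle and 10.3 to 26.4 (median 17.5) in the dense libraries, with all middle libraries above the light ones. Slc7a6os had TPM of 8.83 to 20.2 (median 12.8) in the light, 19.7 to 39.0 (median 29.4) in the middle and 10.8 to 22.8 (median 16.5) in the dense libraries, where the lowest middle library was just below the highest light one. Their changes to the middle zone were 1.36 (SE 0.41, adjusted p = 0.0390) and 1.16 (SE 0.27, adjusted p = 0.0171), and their changes to the dense zone, 0.23 (SE 0.41, adjusted p = 0.654) and 0.41 (SE 0.27, adjusted p = 0.228), did not pass. Without the light zone of gradient 1, the light zone of gradient 2 or the middle zone of gradient 1, the middle zone calls of Slc9a3r2 (adjusted p = 0.0884, 0.208 and 0.170), Slc7a6os (0.0637, 0.112 and 0.102) and Slc4a1ap (0.148, 0.142 and 0.172) were lost. With the gradient as a block the change of Slc7a6os to the dense zone had an adjusted p of 0.0285. The remaining gene of the 5, Slc36a1os, chosen after its values were seen, had TPM of 6.45 to 17.4 (median 10.0) in the light and 1.72 to 5.24 (median 2.38) in the dense libraries and fell by 1.68 (SE 0.23, adjusted p = 0.00171).

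**Figure D3:**
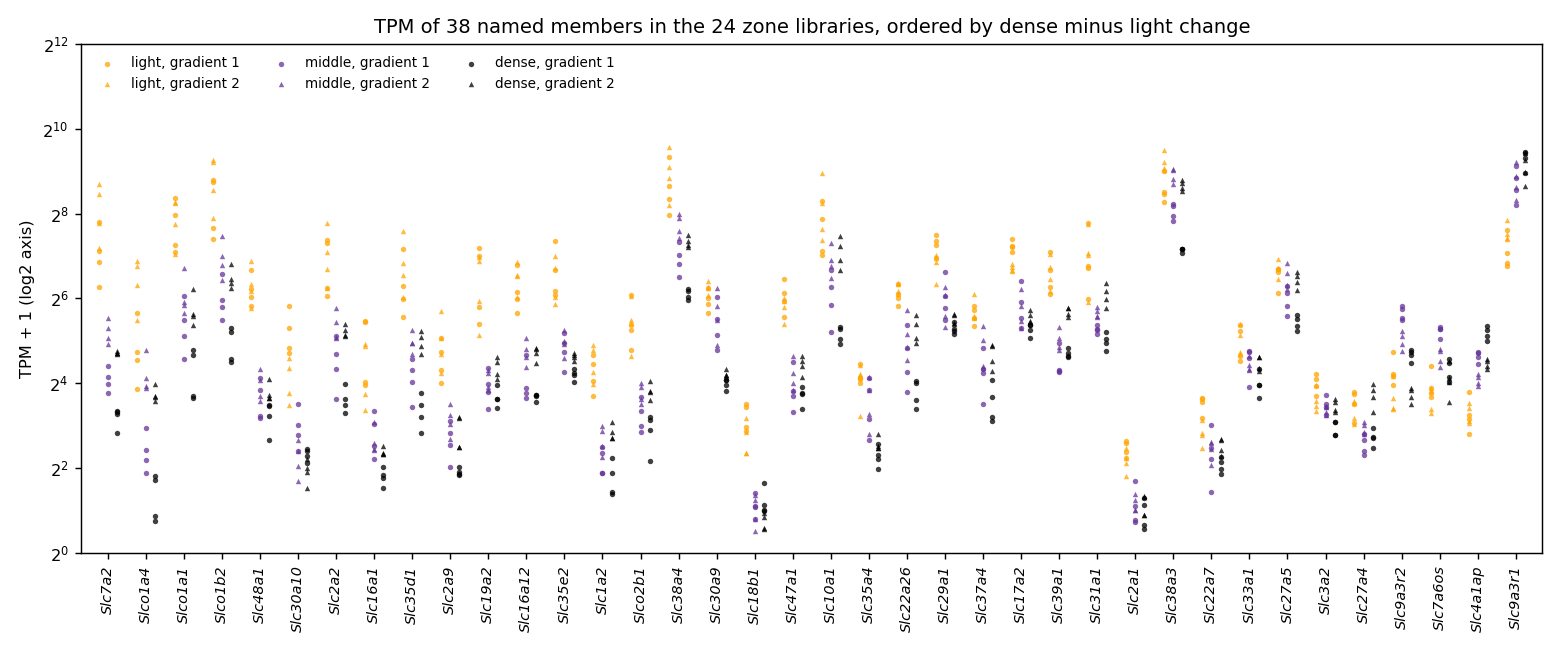
TPM + 1 on a log2 axis for 38 named members, with a point for each of the 24 zone libraries, colored by zone and shaped by gradient. Slc7a2 stands at the left end with the largest fall toward the dense zone and Slc9a3r1 at the right end with the largest rise.

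Across whole gradients most members' profiles resembled each other. Of 160 tested members, 138 (86.3%) had their highest value among the 17 shared fractions in the light zone in both gradients, while 36.0% of all genes did. Over all fractions sequenced, fraction 5 was the highest for 119 members in gradient 1 and for 95 in gradient 2, and for 3080 and 2656 of all 11754 genes. The center of sedimentation, the mean fraction number weighted by TPM, had a median of 9.61 for the members and 11.2 for all genes. In gradient 1 the members' median center was 2.20 fractions lighter and in gradient 2 it was 1.08 fractions lighter than that of all genes. Weighted by log2(TPM + 1) these differences were 1.05 and 0.44 fractions. Pearson's R between pairs of members over the 17 fractions had a median of 0.863 in gradient 1 and 0.764 in gradient 2 over 12720 pairs, against 0.0667 and 0.0850 over all pairs of genes. It was 0.915 and 0.760 among the secreted plasma proteins and 0.857 and 0.749 among the partners and exporters described below. Of these sets 73.1% and 79.3% peaked in the light zone in both gradients. Among the ABC transporters R was 0.463 and 0.322, with 62.1% peaking there. Among the mitochondrial Slc25 carriers it was 0.072 and 0.102, with 23.7% peaking there. The points share the libraries and neighboring fractions resemble each other, so these values are descriptions. The R of a member's profile between the gradients had a median of 0.939, and 0.899 over all genes. On the log2 scale these were 0.893 and 0.891, and with gradient 2 shifted by −1 they were 0.747 and 0.787.

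Past the dense zone, gradient 2 had libraries that gradient 1 lacked. The ratio of the mean TPM in fractions 22 to 24 to that in fractions 16 to 19 had a median of 1.10 for the members and was over 1 for 101 of 160. Over all genes the median was 0.915, and 4213 of 11754 were over 1. The median was 1.16 for the ABC transporters, 1.23 for the partners and exporters and 1.40 for the secreted plasma proteins described below. For the mitochondrial Slc25 carriers it was 0.864, with 9 of 38 over 1. The carriers' median relative TPM in gradient 2 went from 0.523 in fraction 14 to 0.787 in fraction 20, while in gradient 1 it lay between 0.387 and 0.452 in fractions 14 to 21. No second library of fractions 22 to 24 was used here, so these values have no replicate check.

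Other gene sets gave a scale for these profiles. Over 17 fractions, the carriers' median profile had R of 0.970 in gradient 1 and 0.973 in gradient 2 with that of 29 ABC transporters, and 0.988 and 0.985 with that of 29 partners and exporters of the hepatocyte surface. Against 26 secreted plasma proteins it was 0.967 and 0.958, and against 38 mitochondrial Slc25 carriers 0.297 and 0.314. The 5 symbols that name no carrier gave −0.685 and −0.646. From the light to the dense zone 15 ABC transporters fell and 5 rose (median −1.05), and 21 partners fell and 4 rose (−1.54). Among secreted proteins 18 fell and 1 rose (−1.72), and among Slc25 carriers 14 fell and 8 rose (−0.24). Of all genes 39.6% fell and 22.3% rose, and of the Slc25 carriers 36.8% and 21.1%. Some ABC transporters are also on the partner list. Whether these sets differ from the members was not tested.

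Encoded proteins and transcripts were compared with the changes, as features chosen after the data were seen. Hydrophobic segments were counted in the translated coding sequence as stretches where the mean hydropathy of 19 residues was at least 1.6. The members had a median of 8 segments and all other genes a median of 0. The 5 members without a segment had a median change of 0.41 between the light and dense zones, the 5 with 1 segment −0.59, the 5 with 2 to 3 segments −1.34, the 36 with 4 to 6 segments −1.67, the 72 with 7 to 9 segments −1.53 and the 36 with 10 to 14 segments −1.35. Of the 5 without a segment, 4 are symbols that name no carrier, and the other, Slc16a5 (chosen after its values were seen), was read from a coding sequence of 447 bases. For other genes the medians were −0.03 without a segment, −0.68 with 1 segment, −1.08 with 2 to 3, −1.25 with 4 to 6, −1.38 with 7 to 9 and −1.46 with 10 to 19. Bins of 5 members rest on few genes, and within the carriers Spearman's rho between segments and change was 0.002 (n = 155 genes).

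The annotated length of the 3′ untranslated region went with the size of the fall. Spearman's rho across 159 members was −0.566 (−0.499 in gradient 1 and −0.585 in gradient 2), and across 10649 other genes it was −0.327. The 33 members with a region under 500 bases had a median change of −0.91, with 19 lower in the dense zone, against a median of 0.34 and 23.7% lower among other genes of that length. The 56 members with at least 2000 bases had a median of −1.96, and 56 of 56 were lower, against 56.2% of other genes of that length. The coding length gave rho of 0.087. Genes are not independent replicates, they share the libraries, and the isoforms present in liver were not measured here. Slc7a2 had 5774 bases and Slc27a5 had 130.

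**Figure D4:**
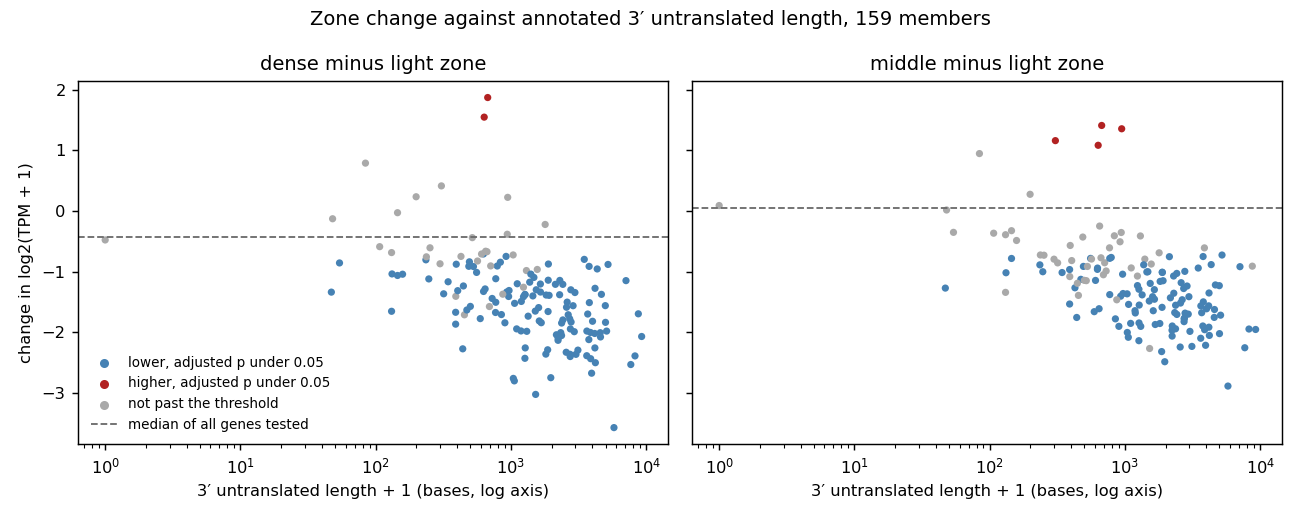
Change in log2(TPM + 1) of 159 members (vertical axis) against the annotated 3′ untranslated length plus 1 in bases (horizontal log axis), for the dense minus light and middle minus light zones, colored by limma call. Points lie lower toward longer regions, with rho of −0.566 for the dense and −0.542 for the middle zone.

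The members lie on 20 chromosomes. In GENCODE M21 on GRCm38, the assembly also called mm10, Slc7a2 spans chromosome 8, 40862396 to 40922308, plus strand, Slco1b2 chromosome 6, 141629518 to 141686646, plus strand, Slc38a3 chromosome 9, 107650634 to 107669530, minus strand, Slc10a1 chromosome 12, 80953183 to 80968705, minus strand, and Slc9a3r1 chromosome 11, 115163341 to 115181181, plus strand. Runs of neighbors less than 100000 bases apart held 34 members in 15 runs. Examples are Slc17a2, Slc17a3, Slc17a1 and Slc17a4 on chromosome 13 (23806993 to 23915009), Slc22a26 to Slc22a29 on chromosome 19 (7781041 to 8218900), and Slco1a4 with Slco1a1 on chromosome 6 (141805440 to 141946962). Neighbors of the same family, as in these examples, can share reads, so their separate values are uncertain. In 5 of the 15 runs the neighbors are of different families. Exons of 58 members overlap with another annotated gene, 50 of them on the opposite strand. Slc7a2, Slc1a2, Slc48a1, Slc35a4, Slc4a1ap and Slco2b1 are among these, and whether the counting used strand is not given in the sources used here.

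Cell type markers were read in the same libraries. All 6 hepatocyte markers were listed in both gradients, with summed TPM of 40718 and 28488 in the light, 7913 and 12470 in the middle and 9126 and 18348 in the dense zones of gradients 1 and 2. Alb was the most abundant. All 5 Kupffer cell markers were listed, led by Cd5l, with sums of 151 and 138 in the light and 45.2 and 53.1 in the dense zones. The 5 markers of sinusoidal endothelial cells, led by Clec4g, summed to 64.0 and 38.8 in the light and 29.1 and 19.4 in the dense zones. For stellate cells 4 of 5 markers were listed, led by Dcn, with 39.4 and 52.8 in the light and 11.5 and 17.8 in the dense zones.

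Cholangiocytes had 4 of 5 markers listed, led by Sox9, with sums of 5.80 and 4.49 in the light and 7.21 and 5.74 in the dense zones. Of the red cell markers, 2 of 4 were listed, led by Hba-a1, with sums of 392 and 295 in the light and 86.5 and 76.8 in the dense zones. Of the lymphocyte markers, 2 of 3 were listed, led by Ptprc, with 3.18 and 2.48 in the light and 0.750 and 0.680 in the dense zones. Col1a1, Epcam, Hbb-bs, Hbb-bt and Cd79a were not in both tables. Every marker list except that of cholangiocytes had a higher sum in the light than in the dense zone of both gradients. Some markers differed from their list's sum. From the light to the dense zone Cps1 of the hepatocyte list went from 759 to 3284 in gradient 1 and from 1283 to 5515 in gradient 2, and in gradient 2 Ttr went from 1423 to 3310.3 and Apoa1 from 1828 to 2786. Alas2 of the red cell list (from 4.07 to 6.57 and from 4.97 to 10.4) and Des of the stellate list (from 1.70 to 3.39 and from 1.56 to 1.93) were also higher in the dense zone of both gradients. Sox9, in a list whose sum was higher in the dense zone, went from 2.41 to 2.20 and from 2.54 to 2.43. The markers were not tested, and their part in the carriers' changes was not tested. The zones of each gradient share a homogenate. Between gradients, fewer cells of a type and less RNA per cell cannot be told apart.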

How the data were processed

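Livers of wild-type female FVB mice were fractionated in 2 sucrose gradients, and 39 stranded libraries depleted of ribosomal RNA were sequenced. The authors ran Kallisto on an mm10 RefSeq index, and the deposited values are TPM by gene symbol, in a table per gradient. The Kallisto version and the summing of transcripts to genes are not given in the sources used here. Depth is unknown from TPM, and only the spread between gradients gives the precision of a value.

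Zone means of log2(TPM + 1) were tested with limma 3.58.1 (R 4.3.3, trend in eBayes, Benjamini-Hochberg adjustment over the 11754 genes whose mean TPM was 1 or more). P-values measure the spread between 2 gradients. Profiles were compared with Python 3.11.15, NumPy 2.4.6, pandas 2.3.3 and SciPy 1.17.1, and drawn with Matplotlib 3.10.9. Zones of a gradient share its homogenate, and deviations of the gradients correlated between the light and middle (r = 0.665), light and dense (0.540) and middle and dense zones (0.798), so a fit with the gradient as a block was also made. Named genes are the 2 most abundant of each substrate list, the 5 largest rises and falls between the light and dense zones and 3 for each other pair of zones among calls whose mean TPM was 10 or more, and 20 known liver carriers. Substrate lists follow family numbers, with exceptions inside families. Members and lists were chosen with earlier results of these data known. Of the members chosen by the rule for named genes, 2 are not reported here.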

Additional observations from a re-analysis of the deposited data

How the results depend on the processing

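Alternatives were quantile normalization, TPM rescaled without the 50 most abundant genes, a pseudocount of 0.1, filters on mean TPM (none or at least 10), no trend, other zone borders (fractions 4 to 6, 11 to 13 and 17 to 19), gradient 2 shifted by 1 fraction either way, the gradient as a block, only carriers outside the intracellular list, and each zone value left out in turn, where the lone value is assumed to vary like the others. The cause of a change was not tested, except that a stricter filter and the shorter carrier list test fewer genes and a left-out value leaves fewer samples.

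With a mean TPM of at least 10, 57 of 74 members fell from the light to the dense zone and 48 to the middle zone, against 35.5% and 20.4% of 7233 genes. Among carriers outside the intracellular list, 0 were higher in the dense and 0 in the middle than in the light zone. Lower in the dense than in the middle zone were also 0. The block took these counts to 1, 1 and 8, against 3589, 4369 and 4614 of all 11754 genes. With the gradient as a block 4 members were higher in the dense than in the light zone and 14 lower in the dense than in the middle zone. The block kept the 129, 113 and 2 falls called without it and raised these counts to 145, 140 and 14, and the falls over all genes to 50.0%, 35.0% and 39.3%. Among named members the block added 5 calls between the light and dense zones (Slc10a1, Slc22a7, Slc27a5, Slc38a3 and Slc7a6os) and 7 between the light and middle zones, and it changed no other of their calls in these 2 comparisons. Between the middle and dense zones it added Slc7a2, Slc7a6os, Slc9a3r2, Slco1a4 and Slco1b2. Between the dense and middle zones 1 member (Slc30a9) fell with quantile normalization, with other zone borders or with gradient 2 shifted by +1, against 13.7%, 18.4% and 14.2% of all genes, and quantile normalization took the median change from −0.19 to 0.14. Leaving out zone values gave 1 to 2 rises and 84 to 140 falls for the dense against the light zone, 1 to 4 and 43 to 127 for the middle against the light zone, and 0 to 1 and 0 to 3 for the dense against the middle zone, with a median change of −0.48 (without the dense zone of gradient 2) to 0.0434 (without that of gradient 1). Over all genes the falls were 27.8% to 37.7%, 12.0% to 26.0% and 0% to 18.6%. Without a middle zone limma called 0 genes between the dense and middle zones.

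The call of Slco1a4 in the dense zone was also lost with a pseudocount of 0.1 and that of Slc33a1 with gradient 2 shifted by +1. Slc22a7 passed with that shift and without a trend, Slc10a1 with gradient 2 shifted by −1, and Slc7a6os with quantile normalization. Over 38 named members and 14 settings, 5 of 1064 changes from the light to the dense or middle zone had another sign. Changes between the middle and dense zones were not counted here. From the light to the middle zone Slc38a3 ran from −0.84 to 0.0150 with zone values left out. Slc27a4 to the dense zone was 0.21 with quantile normalization and ran from −0.72 to 0.28, and Slc9a3r2 ran from −0.24 (without the dense zone of gradient 1) to 0.69, with −0.08 without the light zone of gradient 2.

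The center of the members was −0.757 fractions from that of all genes on the log2 scale, in place of −1.63. R between gradients, 0.939 as reported, was 0.893 on the log2 scale, 0.921 without a filter, 0.959 with the stricter filter, 0.817 with gradient 2 shifted by +1 and 0.747 by −1. Over all genes, 0.899 as reported, it was 0.891, 0.881, 0.935, 0.796 and 0.787. R between pairs of members was 0.717 over all 22 fractions of gradient 2. The 2 gradients and the unknown depth limit all values.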
